A study of Homo sapiens with 8 samples.

Results

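The genes described here are 53 genes of the G2 phase and of mitosis, and transcripts of all 53 were measured on 8 Affymetrix expression arrays of SKBR3 cells. They were chosen from a fixed list of gene symbols and are 53 of the 19775 genes on these arrays that have a probe set assigned to a single gene. That list was drawn up with earlier results of these data known. A probe set is a group of short array probes for 1 transcript, the 53 genes have 103 of them, and a gene's value is the mean of its probe sets. SKBR3 is a human breast cancer cell line with amplified HER2, without the classical estrogen receptor and with the membrane receptor GPER. Per the labels, the cells stood for 4 h in medium with 10% charcoal-stripped fetal bovine serum, a serum largely freed of steroids, before a treatment of 3 h. Untreated cells were taken 3 h after the medium was changed. The treatments were 0.1% ethanol, 1e-06 M estradiol, 1e-06 M BSA (bovine serum albumin), 1e-06 M E2-BSA (estradiol coupled to that albumin), 1e-05 M G15 (an antagonist of GPER), 1e-06 M E2-BSA with 1e-05 M ICI, and 1e-06 M E2-BSA with 1e-05 M G15. The labels name ethanol as the vehicle of estradiol, give no ethanol content for the estradiol cells and name ICI only by this abbreviation. Each condition has 1 array. No difference below therefore has a replicate error, an interval or a test, and the number of arrays limits the precision.

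Dividing cells make the proteins of mitosis anew in each cycle. Transcripts of cyclin B, the mitotic kinases, the spindle motors and the kinetochore proteins are low in G1, build up in S and G2 and peak as cells enter mitosis. In quiescent or arrested cells a repressor complex called DREAM holds their promoters down, and in cycling cells the same MuvB core acts with the transcription factors MYBL2 and FOXM1 to switch them on. The complex binds a short promoter element called CHR (cell cycle genes homology region), often beside boxes bound by the trimeric factor NF-Y. The labels name no synchronisation, so that an array reads a mixture of phases. Fewer cells in G2 or mitosis and less transcript per such cell cannot be told apart in these bulk samples.

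Promoter sequences of 46 of the 53 genes were matched by symbol in a RefSeq table on GRCh38.p14, as 57 windows of 300 bases, each from 250 bases before a transcription start to 50 after it. The first 4 below belong to the genes with the largest deficit on the ethanol array among those with a window. CCNB1 and CDC20, added after the values were seen, are well-known cell cycle promoters, and SGO1 had the highest difference of the 53. Capitals mark CCAAT, the NF-Y box, and the hexamers TTTGAA and TTTAAA, the usual cores of the CHR, on either strand. On the opposite strand the box reads ATTGG and the first hexamer reads TTCAAA.
PSRC1 promoter, chr1:109283096-109283395, minus strand: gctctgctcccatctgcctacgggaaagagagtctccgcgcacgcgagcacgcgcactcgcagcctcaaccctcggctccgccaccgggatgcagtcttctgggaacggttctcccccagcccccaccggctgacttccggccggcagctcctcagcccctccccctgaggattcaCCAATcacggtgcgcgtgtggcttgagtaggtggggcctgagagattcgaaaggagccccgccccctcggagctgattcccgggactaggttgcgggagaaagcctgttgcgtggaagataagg
ARHGAP11A promoter, chr15:32614894-32615193, plus strand: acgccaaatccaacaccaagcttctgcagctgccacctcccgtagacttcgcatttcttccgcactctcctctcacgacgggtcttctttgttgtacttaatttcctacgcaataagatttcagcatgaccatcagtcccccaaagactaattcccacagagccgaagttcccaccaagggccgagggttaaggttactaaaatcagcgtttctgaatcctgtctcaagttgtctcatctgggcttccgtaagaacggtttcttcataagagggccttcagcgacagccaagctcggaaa
CCNF promoter, chr16:2429197-2429496, plus strand: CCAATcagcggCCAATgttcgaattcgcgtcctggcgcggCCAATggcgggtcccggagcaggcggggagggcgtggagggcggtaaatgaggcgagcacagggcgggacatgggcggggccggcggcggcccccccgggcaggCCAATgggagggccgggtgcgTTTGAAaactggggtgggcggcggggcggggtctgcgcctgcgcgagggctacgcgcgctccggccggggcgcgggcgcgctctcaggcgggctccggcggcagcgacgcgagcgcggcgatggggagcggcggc
KIF23 promoter, chr15:69414099-69414398, plus strand: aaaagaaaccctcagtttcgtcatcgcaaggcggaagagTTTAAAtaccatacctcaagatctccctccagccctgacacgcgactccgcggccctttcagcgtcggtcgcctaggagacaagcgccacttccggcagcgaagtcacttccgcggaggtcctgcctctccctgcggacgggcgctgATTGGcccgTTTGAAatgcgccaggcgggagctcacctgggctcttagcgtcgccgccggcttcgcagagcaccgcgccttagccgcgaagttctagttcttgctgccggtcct
CCNB1 promoter, chr5:69166900-69167199, plus strand: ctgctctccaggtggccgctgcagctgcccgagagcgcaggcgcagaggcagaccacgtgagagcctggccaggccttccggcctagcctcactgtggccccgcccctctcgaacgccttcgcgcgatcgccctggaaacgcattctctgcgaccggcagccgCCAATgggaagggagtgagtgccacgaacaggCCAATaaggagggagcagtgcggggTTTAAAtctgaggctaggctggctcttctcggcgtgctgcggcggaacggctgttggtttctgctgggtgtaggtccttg
CDC20 promoter, chr1:43358731-43359030, plus strand: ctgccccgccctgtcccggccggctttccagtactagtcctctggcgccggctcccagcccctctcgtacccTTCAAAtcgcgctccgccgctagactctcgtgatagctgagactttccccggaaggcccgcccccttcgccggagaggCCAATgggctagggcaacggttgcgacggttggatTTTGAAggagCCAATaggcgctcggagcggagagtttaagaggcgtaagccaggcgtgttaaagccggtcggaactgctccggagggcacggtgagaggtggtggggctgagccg
SGO1 promoter, chr3:20186157-20186456, minus strand: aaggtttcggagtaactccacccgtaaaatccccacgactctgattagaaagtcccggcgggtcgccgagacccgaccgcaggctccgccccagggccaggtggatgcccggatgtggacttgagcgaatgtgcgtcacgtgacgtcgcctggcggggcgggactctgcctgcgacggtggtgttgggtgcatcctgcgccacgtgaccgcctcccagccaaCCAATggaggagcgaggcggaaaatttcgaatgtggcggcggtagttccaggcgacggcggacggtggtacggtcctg
In KIF23 the box begins 64 bases before the start and TTTGAA 55 bases before it, and in CDC20 the nearest TTTGAA begins 65 and the nearest box 55 bases before. CCNB1 has boxes that begin 87 and 55 bases before its start and TTTAAA 30 bases before. ARHGAP11A holds none of these exact words in this window, and of these words PSRC1 and SGO1 hold the box alone. Other forms of the CHR were not searched, so that these windows are not shown to lack the element.

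Over all members, 34 of the 57 windows (59.6%) held TTTGAA, against 15.2% of all 35116 windows of the same length. The share with TTTAAA was 33.3% against 12.2%, and with CCAAT 77.2% against 34.6%. A TTTAAA match can also be part of a TATA-like stretch. Either hexamer together with CCAAT occurred in 61.4% of member windows and in 9.27% of all windows. Among 26 windows of G1/S and replication genes, 73.1% held CCAAT but 7.69% held TTTGAA, while among 42 windows of other mitotic genes TTTGAA occurred in 59.5%, CCAAT in 57.1% and TTTAAA in 4.76%, below the share of TTTAAA in all windows. Many members share these letters, which the choice of the genes did not use. A match describes the sequence and is not a binding site.

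**Figure D1:**
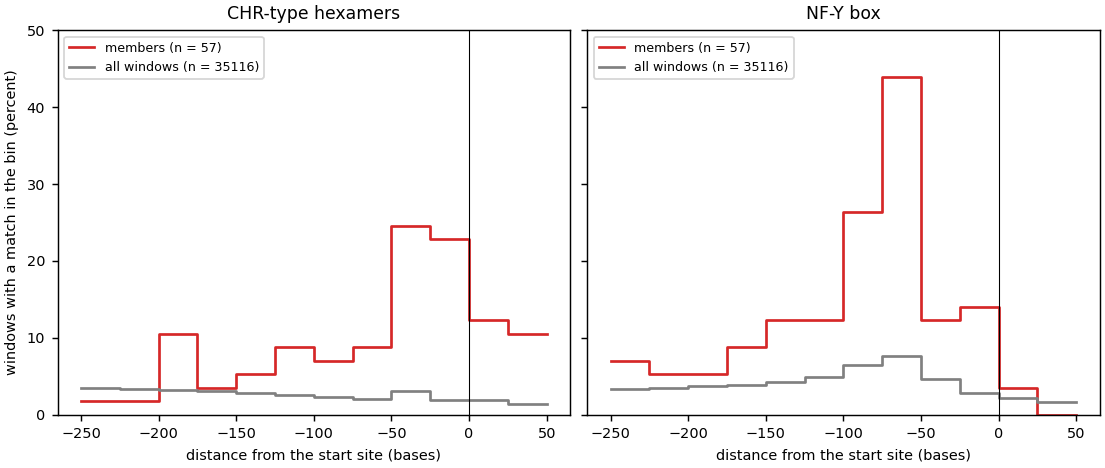
Position of motif matches around the transcription start for 57 member windows (red) and 35116 windows of all genes (grey), as the percent of windows with a match that begins in each bin of 25 bases; CHR-type hexamers on the left, NF-Y boxes on the right, both strands. Hexamer matches of the members are most frequent in the bins from -50 to -1 (24.6% and 22.8% of windows) and NF-Y boxes in the bin from -75 to -51 (43.9%).

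The deposited values, read here as log2, are centred for each probe set. A value thus says how an array stands relative to the others for the same gene and nothing about the level. For that reason levels cannot be compared between genes, and the HER2 and keratin markers of the cell line could not be checked. Base 2 was assumed, since the base was not given in the sources used here. A difference is the value on the first array minus that on the second, and 1.5-fold corresponds to 0.58. The ethanol array stood apart from the other 7: the chemokine CXCL8 was at 7.21 there and between -0.22 and 0.27 elsewhere, with 0.00 on the estradiol array. The spread over all genes of the difference from untreated cells was 0.304 (SD) for ethanol and 0.166 for BSA, a pair without hormone or antagonist.

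For 49 of the 53 mitotic genes the ethanol value was the lowest of the 8, a place it took for 26.3% of all genes. Against untreated cells 51 of 53 lay below 0, beside 56% of all genes, and the median difference of the 53 was -0.50, a 1.42-fold deficit, beside -0.03 over all genes. At least 1.5-fold lower were 21 of 53 (39.6%), among 143 genes of the whole array (0.723%). The 21 make up 14.7% of those 143 genes. Among the 20 genes with the lowest differences of all 19775, 9 were members. The members were chosen with earlier results of these data known, so that their place among the lowest genes is no separate result. PSRC1 was the lowest gene of the whole array and the only member at least 2-fold lower (beside 0.0152% of all genes), at -1.14. For 22 of 53 the ethanol array lay below the other 7 by more than the whole range of those 7, beside 3.12% of all genes.

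The size of this deficit depended on the reference and the scale, while 51 genes were below 0 against untreated cells, BSA (beside 55.5% of all genes) and the median of the other 7 arrays (beside 56.1%), and also on a common scale. With the BSA array in place of untreated cells, the median was -0.37 and 13 genes were at least 1.5-fold lower (24.5%, beside 1.29% of all genes). Against the median of the other 7 arrays the median was -0.43 with 16 genes past 1.5-fold (30.2%, beside 0.425%). With every array centred and brought to the same interquartile range the median was -0.39 and 11 genes passed 1.5-fold, beside 0.41% of all genes. Read as natural logarithms, the values would place 37 of the 53 past 1.5-fold, beside 3.62% of all genes.

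**Figure D2:**
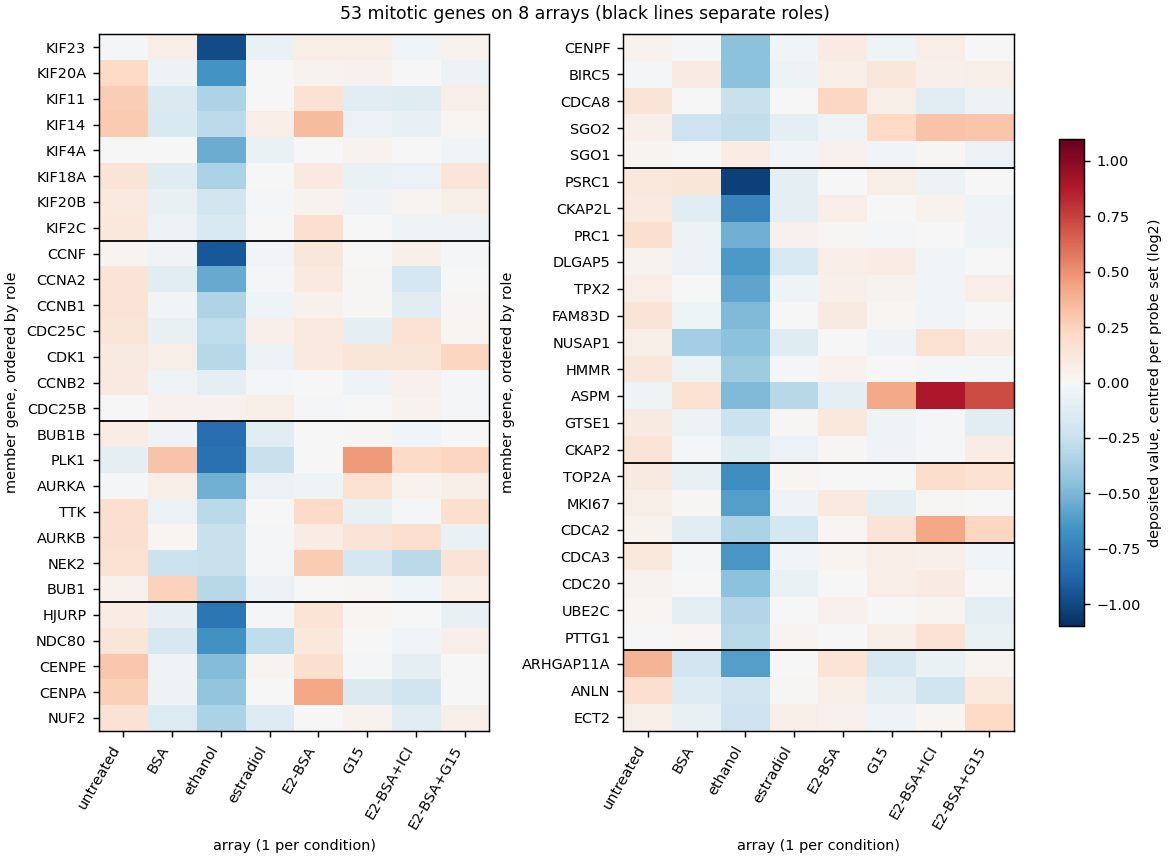
Deposited values (colour, log2, centred per probe set) of the 53 mitotic genes (rows, grouped by role between black lines, first 27 on the left) on the 8 arrays (columns). The ethanol column is the lowest for 49 of the 53 genes, down to -1.03 for PSRC1, and ASPM stands out at 0.89 with E2-BSA plus ICI.

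All 8 mitotic kinesins, the motors that build and slide the spindle, were lower with ethanol (beside 56% of all genes). Their median was -0.56, and 3 were past 1.5-fold (beside 0.723%). KIF23, a subunit of centralspindlin that is needed for cytokinesis, was at -0.98 with ethanol, -0.02 in untreated cells, 0.07 with BSA, -0.07 with estradiol, 0.08 with E2-BSA, 0.07 with G15, -0.03 with E2-BSA plus ICI and 0.04 with E2-BSA plus G15. The ethanol value is far below 7 values that lie within 0.15 of each other. That narrow band belongs to the mean of its probe sets, which stood apart at 0.33 and -0.37 in untreated cells. With ethanol they were at -0.30 and -1.66, the lowest value of each. KIF20A, which carries the chromosomal passenger complex to the central spindle, was at -0.66 with ethanol, 0.22 in untreated cells, -0.05 with BSA, 0.00 with estradiol, 0.04 with E2-BSA, 0.04 with G15, 0.00 with E2-BSA plus ICI and -0.05 with E2-BSA plus G15, and KIF11, the motor that separates the spindle poles, at -0.34 with ethanol, 0.27 in untreated cells, -0.16 with BSA, 0.00 with estradiol, 0.16 with E2-BSA, -0.11 with G15, -0.13 with E2-BSA plus ICI and 0.06 with E2-BSA plus G15. Neither gene's ethanol value was reached on another array, but KIF11 was also low with BSA, so that its difference was -0.61 against untreated cells and -0.18 against BSA. KIF14, KIF4A and KIF18A lay between -0.58 and -0.49 against untreated cells. As gene means, KIF20B (-0.31) and KIF2C (-0.29), a microtubule depolymerase at centromeres, had the smallest deficits of the group. The probe sets of KIF20B gave -0.61, -0.35 and 0.04.

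Of the 7 cyclin, CDK1 and CDC25 genes 6 were lower (beside 56% of all genes). CCNF, an F-box protein with a cyclin box that serves as a ubiquitin ligase subunit, was at -0.94 with ethanol, 0.03 in untreated cells, -0.04 with BSA, -0.03 with estradiol, 0.13 with E2-BSA, -0.01 with G15, 0.06 with E2-BSA plus ICI and -0.01 with E2-BSA plus G15. CCNA2, cyclin A2, was at -0.55 with ethanol, 0.14 in untreated cells, -0.12 with BSA, -0.01 with estradiol, 0.11 with E2-BSA, 0.01 with G15, -0.19 with E2-BSA plus ICI and 0.00 with E2-BSA plus G15. Both had their lowest value with ethanol, by a wider gap in CCNF (-0.96 against untreated cells) than in CCNA2 (-0.70). The core of the mitotic switch stood lower by less: CCNB1, cyclin B1, was at -0.33 with ethanol, 0.14 in untreated cells, -0.03 with BSA, -0.05 with estradiol, 0.05 with E2-BSA, 0.01 with G15, -0.13 with E2-BSA plus ICI and 0.01 with E2-BSA plus G15, a difference of -0.48. Its kinase CDK1 differed by -0.41 and the activating phosphatase CDC25C by -0.41. CCNB2, cyclin B2, had the smallest deficit of all members below 0, at -0.21, the mean of probe sets at -0.36, -0.22 and -0.06. CDC25B, a phosphatase that activates cyclin-dependent kinase at the start of mitosis, was at 0.05 with ethanol, 0.00 in untreated cells, 0.05 with BSA, 0.07 with estradiol, -0.02 with E2-BSA, 0.00 with G15, 0.04 with E2-BSA plus ICI and -0.01 with E2-BSA plus G15. Its 8 values lie within 0.08 of each other, and ethanol does not stand apart among them.

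All 7 mitotic kinase genes were lower (beside 56% of all genes), with a median of -0.48. BUB1B, the spindle checkpoint protein BubR1, was at -0.84 with ethanol, 0.08 in untreated cells, -0.04 with BSA, -0.12 with estradiol, 0.00 with E2-BSA, 0.01 with G15, -0.03 with E2-BSA plus ICI and 0.00 with E2-BSA plus G15. PLK1, the polo-like kinase of mitotic entry and spindle assembly, was at -0.82 with ethanol, -0.11 in untreated cells, 0.32 with BSA, -0.25 with estradiol, 0.00 with E2-BSA, 0.47 with G15, 0.21 with E2-BSA plus ICI and 0.23 with E2-BSA plus G15. PLK1 varied more than BUB1B on the other arrays, over 0.72 against 0.20, yet its ethanol value lay 0.57 below the lowest of them. AURKA, the centrosomal aurora kinase, was at -0.53 with ethanol, -0.02 in untreated cells, 0.06 with BSA, -0.06 with estradiol, -0.05 with E2-BSA, 0.17 with G15, 0.04 with E2-BSA plus ICI and 0.06 with E2-BSA plus G15. AURKB, the kinase of the passenger complex, was at -0.25 with ethanol, 0.18 in untreated cells, 0.03 with BSA, -0.02 with estradiol, 0.08 with E2-BSA, 0.14 with G15, 0.19 with E2-BSA plus ICI and -0.07 with E2-BSA plus G15, and the checkpoint kinase BUB1 at -0.30 with ethanol, 0.05 in untreated cells, 0.26 with BSA, -0.07 with estradiol, 0.01 with E2-BSA, 0.02 with G15, -0.03 with E2-BSA plus ICI and 0.07 with E2-BSA plus G15. In these 3 genes too the ethanol value was the lowest, at differences of -0.51, -0.42 and -0.35 from untreated cells. The checkpoint kinase TTK differed by -0.48. NEK2, a kinase that splits the centrosomes, was at -0.25 with ethanol, 0.17 in untreated cells, -0.23 with BSA, -0.01 with estradiol, 0.28 with E2-BSA, -0.19 with G15, -0.30 with E2-BSA plus ICI and 0.14 with E2-BSA plus G15. Its ethanol value is matched on the BSA array and undercut on the E2-BSA plus ICI array, so that the difference of -0.42 against untreated cells becomes -0.01 against BSA.

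Of 10 centromere, kinetochore and passenger genes, 9 were lower (beside 56% of all genes) and 4 passed 1.5-fold (beside 0.723%). HJURP, the chaperone that deposits the centromeric histone, was at -0.80 with ethanol, 0.08 in untreated cells, -0.09 with BSA, -0.02 with estradiol, 0.15 with E2-BSA, 0.02 with G15, 0.00 with E2-BSA plus ICI and -0.08 with E2-BSA plus G15. The histone itself, CENPA, was at -0.43 with ethanol, 0.26 in untreated cells, -0.06 with BSA, 0.00 with estradiol, 0.42 with E2-BSA, -0.16 with G15, -0.22 with E2-BSA plus ICI and 0.00 with E2-BSA plus G15. The ethanol value is the lowest for both, while CENPA is also spread over 0.64 on the other arrays, with its highest value on E2-BSA. NDC80, an outer kinetochore protein that grips microtubules, was at -0.66 with ethanol, 0.13 in untreated cells, -0.18 with BSA, -0.28 with estradiol, 0.11 with E2-BSA, 0.00 with G15, -0.03 with E2-BSA plus ICI and 0.05 with E2-BSA plus G15, and the kinetochore motor CENPE at -0.48 with ethanol, 0.30 in untreated cells, -0.04 with BSA, 0.03 with estradiol, 0.17 with E2-BSA, -0.02 with G15, -0.10 with E2-BSA plus ICI and 0.00 with E2-BSA plus G15. Against untreated cells the differences of these genes were -0.88, -0.69, -0.80 and -0.78 in that order. NUF2, the partner of NDC80, differed by -0.50, CENPF by -0.49, and the passenger subunits BIRC5 (survivin) and CDCA8 (borealin) by -0.43 and -0.38. The probe sets of CENPF ran from -0.78 to -0.07. The shugoshins, which protect centromeric cohesion, stood at the upper end. SGO2 was at -0.26 with ethanol, 0.06 in untreated cells, -0.23 with BSA, -0.10 with estradiol, -0.04 with E2-BSA, 0.22 with G15, 0.31 with E2-BSA plus ICI and 0.30 with E2-BSA plus G15, with BSA within 0.03 of ethanol. SGO1 was at 0.08 with ethanol, 0.03 in untreated cells, 0.00 with BSA, -0.03 with estradiol, 0.05 with E2-BSA, -0.03 with G15, 0.01 with E2-BSA plus ICI and -0.06 with E2-BSA plus G15, the only member with its highest value on the ethanol array.

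The 11 spindle and microtubule genes were all lower (beside 56% of all genes), with a median of -0.63 and 6 past 1.5-fold (beside 0.723%). PSRC1, a microtubule plus-end protein, was at -1.03 with ethanol, 0.11 in untreated cells, 0.13 with BSA, -0.10 with estradiol, 0.00 with E2-BSA, 0.06 with G15, -0.05 with E2-BSA plus ICI and 0.00 with E2-BSA plus G15. CKAP2L, a spindle protein, was at -0.73 with ethanol, 0.11 in untreated cells, -0.13 with BSA, -0.10 with estradiol, 0.07 with E2-BSA, 0.00 with G15, 0.04 with E2-BSA plus ICI and -0.04 with E2-BSA plus G15, and PRC1, which bundles microtubules of the spindle midzone, at -0.53 with ethanol, 0.18 in untreated cells, -0.06 with BSA, 0.05 with estradiol, 0.01 with E2-BSA, -0.01 with G15, 0.00 with E2-BSA plus ICI and -0.05 with E2-BSA plus G15. In all 3 the ethanol value lay below a narrow band of the others. TPX2, the activator of AURKA on the spindle, was at -0.58 with ethanol, 0.07 in untreated cells, 0.00 with BSA, -0.04 with estradiol, 0.06 with E2-BSA, 0.03 with G15, -0.03 with E2-BSA plus ICI and 0.07 with E2-BSA plus G15. DLGAP5, a spindle assembly factor, was at -0.63 with ethanol, 0.04 in untreated cells, -0.06 with BSA, -0.17 with estradiol, 0.08 with E2-BSA, 0.08 with G15, -0.03 with E2-BSA plus ICI and 0.00 with E2-BSA plus G15, and FAM83D, which places a casein kinase on the spindle, at -0.49 with ethanol, 0.14 in untreated cells, -0.05 with BSA, 0.00 with estradiol, 0.10 with E2-BSA, 0.02 with G15, -0.03 with E2-BSA plus ICI and 0.00 with E2-BSA plus G15. None of these ethanol values was reached on another array. NUSAP1, a microtubule bundling protein, was at -0.45 with ethanol, 0.07 in untreated cells, -0.37 with BSA, -0.13 with estradiol, 0.00 with E2-BSA, -0.05 with G15, 0.17 with E2-BSA plus ICI and 0.08 with E2-BSA plus G15, with BSA second lowest. NUSAP1 (-0.52), HMMR (-0.52), ASPM (-0.44), GTSE1 (-0.33) and CKAP2 (-0.28) stood short of 1.5-fold against untreated cells.

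The remaining roles had the same direction. TOP2A, the topoisomerase that untangles sister chromatids, was at -0.68 with ethanol, 0.10 in untreated cells, -0.08 with BSA, 0.02 with estradiol, 0.00 with E2-BSA, 0.00 with G15, 0.19 with E2-BSA plus ICI and 0.17 with E2-BSA plus G15, and MKI67, the Ki-67 proliferation antigen that coats mitotic chromosomes, at -0.61 with ethanol, 0.06 in untreated cells, 0.01 with BSA, -0.04 with estradiol, 0.10 with E2-BSA, -0.09 with G15, 0.01 with E2-BSA plus ICI and 0.00 with E2-BSA plus G15. CDCA3, a trigger of mitotic entry, was at -0.64 with ethanol, 0.11 in untreated cells, -0.03 with BSA, -0.03 with estradiol, 0.03 with E2-BSA, 0.07 with G15, 0.05 with E2-BSA plus ICI and -0.03 with E2-BSA plus G15. All 3 passed 1.5-fold, at -0.77, -0.67 and -0.75, while CDCA2, a phosphatase regulator on chromatin, differed by -0.39. CDCA2 was at -0.35 with ethanol, 0.04 in untreated cells, -0.12 with BSA, -0.19 with estradiol, 0.02 with E2-BSA, 0.14 with G15, 0.42 with E2-BSA plus ICI and 0.23 with E2-BSA plus G15, lowest with ethanol and highest with E2-BSA plus ICI. Among the genes for ubiquitin-dependent exit, the anaphase activator CDC20 differed by -0.49, the conjugating enzyme UBE2C by -0.34 and securin, PTTG1, by -0.30. PTTG1 was at -0.30 with ethanol, 0.00 in untreated cells, 0.02 with BSA, 0.03 with estradiol, 0.00 with E2-BSA, 0.07 with G15, 0.16 with E2-BSA plus ICI and -0.07 with E2-BSA plus G15, where ethanol lies below a band of 0.23. ARHGAP11A, which acts in cytokinesis, was at -0.61 with ethanol, 0.37 in untreated cells, -0.21 with BSA, 0.00 with estradiol, 0.15 with E2-BSA, -0.18 with G15, -0.07 with E2-BSA plus ICI and 0.03 with E2-BSA plus G15. Its untreated value is the highest of the 53 genes on that array, so that the difference is -0.98 against untreated cells and -0.40 against BSA. ANLN (-0.40) and ECT2 (-0.29), which organise the contractile ring, were lower by less. ANLN was at -0.21 with ethanol, 0.18 in untreated cells, -0.14 with BSA, 0.01 with estradiol, 0.06 with E2-BSA, -0.10 with G15, -0.22 with E2-BSA plus ICI and 0.10 with E2-BSA plus G15, so that its values with ethanol and with E2-BSA plus ICI are nearly equal.

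**Figure D3:**
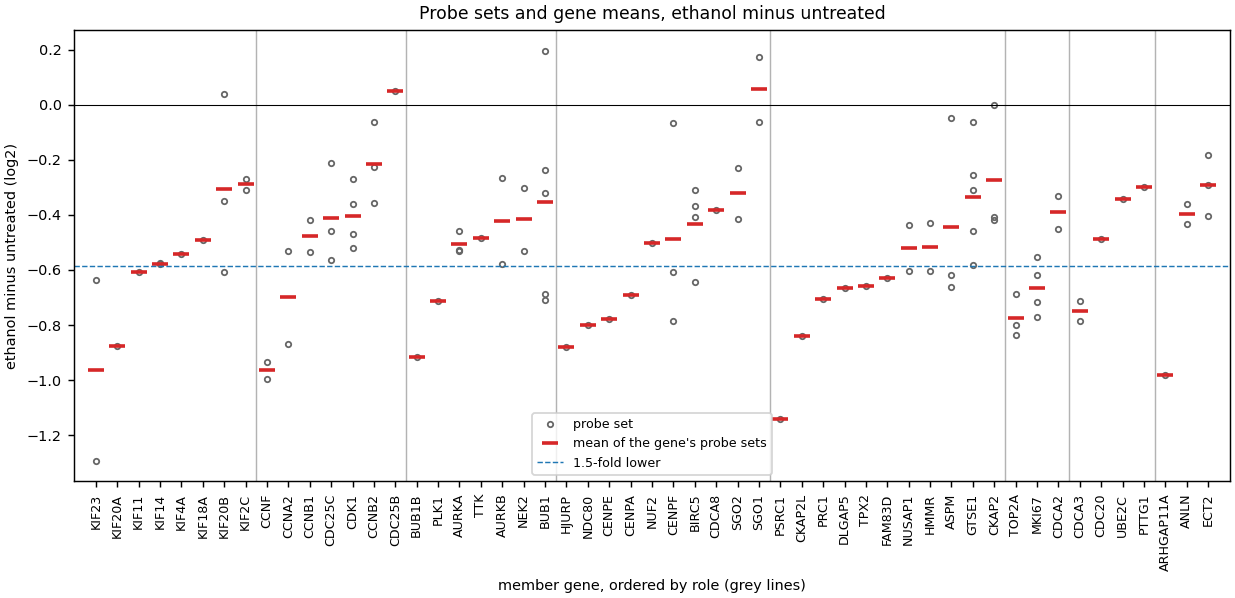
Ethanol minus untreated (log2) for each of the 103 probe sets (open circles) and the mean per gene (red bars) of the 53 mitotic genes, grouped by role between grey lines; the dashed line marks 1.5-fold lower. Gene means run from -1.14 (PSRC1) to 0.06 (SGO1), and 98 of the 103 probe sets lie below 0.

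The deficit was present in nearly every probe set. On ethanol minus untreated 98 of 103 were below 0, beside 52.5% of the 41091 probe sets with 1 gene, and 38 were at least 1.5-fold lower, beside 1.11%. Of the 29 genes with more than 1 probe set, all probe sets were below 0 in 25. The exceptions were BUB1, KIF20B, CKAP2 and SGO1. The 5 probe sets of BUB1 ran from -0.71 to 0.20, so that its mean of -0.35 hides probe sets with a deficit as large as that of PLK1. For KIF23 the probe sets differed by -1.29 and -0.64, and for KIF14 both by -0.58. The SGO1 probe sets, at -0.06 and 0.17, did not share a direction, and CDC25B has 1 probe set. Promoter motifs did not separate large from small deficits sharply: the median was -0.54 for the 31 genes with TTTGAA and -0.42 for the 15 without, and -0.50 for the 38 with CCAAT and -0.64 for the 8 without.

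Genes of mitosis outside the 53 were lower too. Of 39 measured genes of a further list, 39 were below 0 on ethanol minus untreated (beside 56% of all genes), with a median of -0.28. Lower by at least 1.5-fold was 1 of them (beside 0.723%), the condensin subunit NCAPG (-0.67). The list of 22 G1/S and replication genes had a median of -0.08 with 19 below 0 and 0 past 1.5-fold. The 14 measured subunits and activators of the anaphase-promoting complex, which are not periodic as a group, had a median of 0.03 with 6 below 0. The median of the 53 is thus the lowest of these lists. The members and lists were chosen with earlier results of these data known, so that this order is no separate result. The arrays bear no test of the gaps between the lists.

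Among 23 regulators of these genes the median was -0.13, and 3 stood past 1.5-fold. The repressor E2F8 was lower by that measure (-0.92, beside 0.723% of all genes), and E2F3 (0.78) and E2F6 (0.84) were higher (beside 2.98%). FOXM1 differed by -0.41, MYBL2 by -0.32, the MuvB subunit LIN9 by -0.21 and E2F1 by -0.06. The 12 measured brakes on the cycle had a median of -0.06 with 7 below 0 (beside 56% of all genes). At least 1.5-fold higher with ethanol were 3 of them, beside 2.98% of all genes: CDKN1A (1.32), the p21 inhibitor of cyclin-dependent kinases, and the stress genes GADD45A (2.52) and GADD45B (1.37). CDKN1A was at -0.71 with estradiol and between -0.64 and 0.25 on the remaining arrays apart from the ethanol vehicle array. Their part in the lower mitotic transcripts was not tested.

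**Figure D4:**
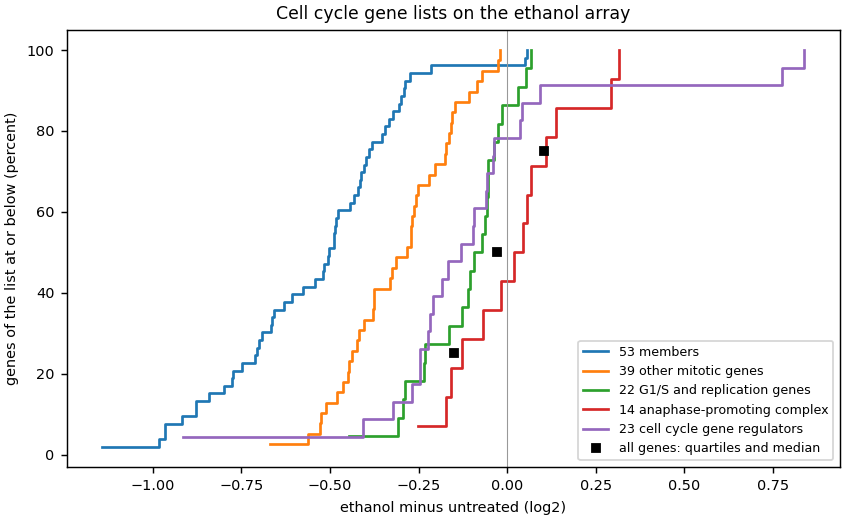
Cumulative share of genes (percent) at or below each value of ethanol minus untreated (log2) for the 53 mitotic genes and 4 further cell cycle lists; black squares mark the quartiles and median of all genes. The curve of the 53 genes lies farthest left (median -0.50), followed by the other mitotic genes (-0.28).

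Away from the ethanol array the mitotic genes varied about as much as other genes did. Over the 7 other arrays the median range of a member was 0.25, beside 0.28 for all genes, and 4 of 53 members (7.55%) had a range of at least 1.5-fold, beside 6.09%: ASPM (1.20), PLK1 (0.72), CENPA (0.64) and CDCA2 (0.62). The order of the arrays by the median value of the 53 was untreated (0.10), E2-BSA (0.06), G15, E2-BSA plus G15 and E2-BSA plus ICI (all 0.00), estradiol (-0.02), BSA (-0.05) and ethanol (-0.43). The untreated array held the highest value for 20 of 53 genes, beside 8.38% of all genes, and the E2-BSA array for 13, beside 14.2%. Comparisons that share the untreated array share this high position, and their values are not independent.

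BSA minus untreated had a median of -0.16 with 43 of 53 below 0 (beside 49.4% of all genes), and no member reached 1.5-fold in either direction (beside 0.202% lower and 0.354% higher). KIF14 was at -0.29 with ethanol, 0.29 in untreated cells, -0.17 with BSA, 0.07 with estradiol, 0.35 with E2-BSA, -0.06 with G15, -0.08 with E2-BSA plus ICI and 0.02 with E2-BSA plus G15, high on the untreated and E2-BSA arrays and low on the BSA and ethanol arrays. The lowest differences were those of ARHGAP11A (-0.58) and KIF14 (-0.45) and the highest were PLK1 (0.42) and ASPM (0.21). The other mitotic genes had a median of -0.17 with 33 of 39 below 0, the regulators -0.11, and the G1/S list -0.11, so that the shift was not larger in the 53 than in the further mitotic list. DEPDC1 of that list, another mitotic gene, differed by -0.67.

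The values for free estradiol depended on the reference. Against the ethanol array 52 of 53 were higher (beside 54.7% of all genes), with a median of 0.36, and 10 were at least 1.5-fold higher (beside 0.566%). The 10 are PSRC1, CCNF, KIF23, HJURP, BUB1B, TOP2A, KIF20A, CKAP2L, ARHGAP11A and CDCA3, with values from 0.60 to 0.93, and all 10 are among the 21 that were low on ethanol minus untreated. These comparisons share the ethanol array, so that the overlap is no separate result. On estradiol minus ethanol the probe sets of KIF23 gave 0.29 and 1.54. Those of TOP2A gave 0.27, 0.40 and 1.42, so that both genes passed 1.5-fold through their highest probe set. SGO1 (-0.12) was the gene below 0. On the common array scale the median was 0.20 and 7 genes were below 0. Against untreated cells 51 of 53 were lower (beside 49.4%), with a median of -0.14, and 0 passed 1.5-fold (beside 0.091% of all genes lower and 0.086% higher). The lowest were NDC80 (-0.41) and ARHGAP11A (-0.37), and the genes above 0 were CDC25B (0.07) and PTTG1 (0.03). Against BSA the median was 0.02 with 23 of 53 below 0 (beside 48.7%). The small deficit against untreated cells was thus not seen against BSA, where the lowest were PLK1 (-0.56) and ASPM (-0.47). On the estradiol array NDC80 was at -0.28, the lowest of the 7 arrays apart from the ethanol vehicle array, and between -0.18 and 0.13 on the other 6.

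Coupled estradiol was set against its carrier. E2-BSA minus BSA had a median of 0.12 with 44 of 53 above 0 (beside 49.3% of all genes) and no member at 1.5-fold (beside 0.662% lower and 0.339% higher). KIF14 and NEK2, both higher by 0.52, and CENPA, by 0.48, were the highest, and PLK1 (-0.32) and ASPM (-0.26) the lowest. Over the 42 genes with a probe set not marked as shared between transcripts, the median from those probe sets alone was 0.05. Against untreated cells the median was -0.03, with 33 below 0 and 18 above (beside 45.5% and 52.1%), and the values lay between -0.22 and 0.16. The G1/S list had a median of 0.13 against BSA as well. Free minus coupled estradiol, at a stated 1e-06 M each and the same time, had a median of -0.11 with 48 of 53 below 0 (beside 52.6%) and 0 past 1.5-fold (beside 0.111% lower and 0.273% higher). CENPA (-0.42) and NDC80 (-0.39) were the lowest there. Whether the stated dose of the conjugate counts its albumin or its estradiol is not given in the labels.

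**Figure D5:**
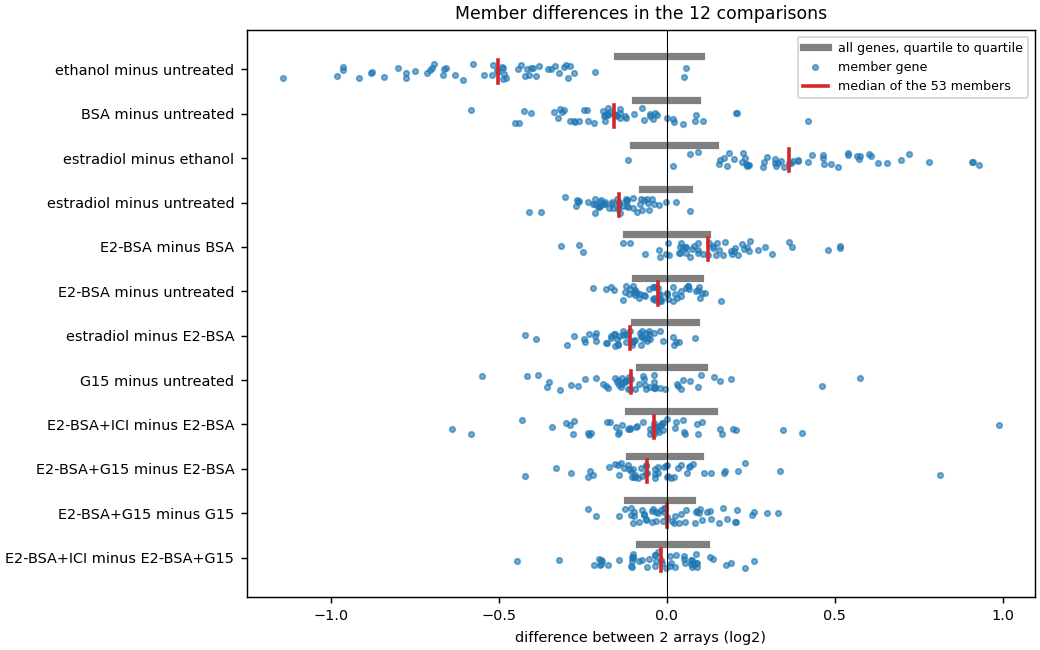
Differences between 2 arrays (log2) of the 53 mitotic genes (blue points, spread vertically for legibility) in 12 comparisons, with their median (red bar) and the range from the 25th to the 75th percentile of all genes (grey bar). The median is -0.50 for ethanol minus untreated, 0.36 for estradiol minus ethanol, and between -0.16 and 0.12 in the other 10 comparisons.

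With the antagonists the median of the 53 lay between -0.11 and 0.05. G15 minus untreated had a median of -0.11 with 41 of 53 below 0 (beside 45.1% of all genes) and no member at 1.5-fold (beside 0.167% lower and 0.364% higher), and against BSA the median was 0.05 with 42 above 0 (beside 53.6%). With the probe sets not marked as shared, 25 of 42 genes were below 0 against untreated cells (beside 44.5% of all genes), with a median of -0.05. The highest against untreated cells were PLK1 (0.57) and ASPM (0.46). E2-BSA plus ICI minus E2-BSA had a median of -0.04 with 37 below 0 (beside 46.8%). CENPA (-0.64) was the only member at least 1.5-fold lower there (beside 0.566%) and ASPM (0.99) the only member at least 1.5-fold higher (beside 1.03%). CENPA has 1 probe set, which is among those marked as shared between transcripts. E2-BSA plus G15 minus E2-BSA had a median of -0.06 with 34 below 0 (beside 51.7%), and ASPM (0.81) alone passed 1.5-fold (beside 0.435% higher). A count of 1 in 53 is 1.89% of the members. E2-BSA plus G15 minus G15 had a median of 0.00 with 26 of 53 below 0 (beside 54.9%), and the antagonist combinations differed from each other by a median of -0.02 with 29 below 0 for ICI minus G15 (beside 43.5%).

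For genes with several probe sets, values that stood out with antagonists came from some probe sets and not from others. ASPM, a spindle pole protein, was at -0.49 with ethanol, -0.04 in untreated cells, 0.16 with BSA, -0.31 with estradiol, -0.10 with E2-BSA, 0.42 with G15, 0.89 with E2-BSA plus ICI and 0.72 with E2-BSA plus G15. It was high on all 3 arrays with an antagonist, which share E2-BSA or G15, and lowest with ethanol. Of its 3 probe sets, the highest stood at 1.72 with E2-BSA plus ICI and 1.60 with E2-BSA plus G15, the next at 0.91 and 0.54, and the lowest at 0.05 and 0.00. For CDK1, 1 of 4 probe sets was higher by 0.88 on E2-BSA plus ICI minus E2-BSA, while the other 3 lay between -0.40 and -0.12. For TOP2A 1 of 3 was higher by 0.85, with the others at 0.00 and -0.26, and for SGO2 1 of 2 by 0.90 with the other at -0.20. Of the 103 probe sets 7 were at least 1.5-fold higher on E2-BSA plus ICI minus E2-BSA (beside 1.81% of all probe sets), from ASPM, CDC25C, CDCA2, CDK1, SGO2 and TOP2A, and 5 on E2-BSA plus G15 minus E2-BSA (beside 0.801%), from ASPM, CDK1, SGO2 and TOP2A. These comparisons share the E2-BSA array. Each of these genes has a further probe set that did not reach 1.5-fold higher. For NEK2, at -0.58 as a gene on E2-BSA plus ICI minus E2-BSA, the probe sets gave -1.02 and -0.15. In BSA minus untreated, probe sets split both ways: 5 were at least 1.5-fold lower (beside 0.764%), from CDC25C, GTSE1, KIF14, NEK2 and NUSAP1, down to -1.06 in GTSE1, and 2 higher (beside 0.964%), from BUB1 and CDK1. In E2-BSA minus BSA the same 5 genes had the 5 probe sets at least 1.5-fold higher (beside 1.59%), and 3 probe sets of BUB1 and CDK1 were at least 1.5-fold lower (beside 1.08%), in comparisons that share the BSA array. The target regions of these probe sets within the transcripts were not analysed here.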

How the data were processed

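Total RNA of SKBR3 cells was labelled with biotin and hybridized to 1 Affymetrix array of 54675 probe sets per condition, per the labels' protocols. The deposited values, read here as log2, are centred for each probe set: no probe set has more than 4 of its 8 values on either side of 0, and each array has a median of 0. How probes were summarized and normalized, and with which software, was not given in the sources used here.

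Arrays were placed in groups by their titles. The 62 control probe sets were left out, and 41091 probe sets with 1 gene in the platform annotation were averaged per gene, giving 19775 genes. A further 1801 probe sets with several genes and 11721 with none were not used, and 41037 of those used were matched to a current record by gene identifier. No filter on low values was possible, because levels are removed. Differences, medians and counts past 1.5- and 2-fold were computed with pandas 2.3.3 and numpy 2.4.6, after the functions had been tested on simulated data. Motifs were searched as exact words in RefSeq promoter windows. The members and lists were chosen with earlier results of these data known. All 53 members could be named; values on all arrays were given for members at least 1.5-fold different in a comparison and for the 2 highest and 2 lowest of each comparison, and CCNB1 was added after the values were seen. Genes outside the 53 were named at 1.5-fold or as listed regulators. Alternatives were other ways to combine probe sets, another array scale, other references and another logarithm.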

Additional observations from a re-analysis of the deposited data

How the results depend on the processing

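The 12 member medians were recomputed with the median of a gene's probe sets, with only probe sets lacking an _x_at or _s_at ending (42 genes), with the probe set of largest SD and with every array on a common scale (the same interquartile range). Of these 48 values, 34 were within 1.5 times the reported one with the same sign, and 3 changed sign. On the common scale the median was 0.201 for estradiol minus ethanol (reported 0.365), -0.0635 for E2-BSA minus untreated (-0.0263), -0.0348 for E2-BSA plus G15 minus E2-BSA (-0.0602), 0.00578 for E2-BSA plus G15 minus G15 (0.00158) and -0.0303 for E2-BSA plus ICI set against E2-BSA plus G15 (-0.0187). Without the _x_at and _s_at probe sets it was 0.055 for E2-BSA minus BSA (0.123), -0.050 for G15 minus untreated (-0.107), and, in the order of the last 3 comparisons above, -0.036, -0.0141 and 0.0126. With the probe set of largest SD it was -0.0163 for E2-BSA minus untreated, -0.0948 for E2-BSA plus ICI minus E2-BSA (-0.0376) and 0.0229 for E2-BSA plus G15 minus G15, which was -0.0083 with the median of probe sets.

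The number of members below 0 was within 1.5 times the reported one in 43 of 48 cases. For estradiol minus ethanol it was 1 (beside 43.1% of all genes). It became 2 without the _x_at and _s_at probe sets (beside 42.7%), 2 with the probe set of largest SD and 7 on the common scale. Without the _x_at and _s_at probe sets it was 25 of 42 for G15 minus untreated (beside 44.5% of all genes), where the same 42 genes gave 32 with all probe sets. For E2-BSA plus ICI set against E2-BSA plus G15 it was 19 of 42 (beside 42.4%), where these genes gave 23. The number of members at least 1.5-fold lower on ethanol minus untreated, 21 as reported, was 11 on the common scale, 13 against BSA, and 37 (beside 3.62% of all genes) if the values are natural logarithms, which lowers the threshold. No paired analysis was possible because each condition has 1 array. Levels cannot be read from centred values, so that a noisy probe set cannot be told from a small difference.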
